A study of Mus musculus with 8 samples.

Results

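The receptor tyrosine kinase Kit, its ligand Kitl and 8 genes of proximal Kit signaling were followed in RNA-seq libraries of mouse embryos. The members were taken by name from the count table, which lists 24015 genes: Kit, Kitl, the adaptors Grb2, Shc1 and Gab2, the PI3K subunit Pik3r1, the kinase Lyn, the phosphatase Ptpn11 and the negative regulators Cbl and Sh2b3. All 10 were in the table and all 10 passed the filter on low counts, as did 13908 genes in all. Hematopoietic clusters and endothelial cells came from the E11.5 aorta-gonad-mesonephros region joined to the vitelline and umbilical arteries (AGM+VU) of wild type or Sl/Sl (Steel) embryos. Cluster cells were sorted as VE-Cadherin+ c-Kit+ and lacked Ter119, and endothelial cells as VE-Cadherin+ and negative for c-Kit, Ter119, CD41 and CD45. Each of the 4 groups (clusters and endothelium, each wild type or Sl/Sl) held 2 libraries of 100 cells, made from pools of 1 to 4 embryos of the same genotype. Per the study the cells came from 2 sorting experiments, and the labels do not say which library came from which sort. Sl/Sl embryos are homozygous for a deletion that takes in the whole of Kitl in every cell, so that clusters and endothelium lacked the gene alike, and both genotypes were on a C57BL/6 background. Kit protein was part of the sort gate and Kitl is the deleted gene, so the difference of Kit between the cell types and that of Kitl between the genotypes are checks of the sort and of the genotype.

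Kit is a transmembrane receptor of hematopoietic stem and progenitor cells, germ cells, melanocytes and mast cells. Kitl, also called stem cell factor, is made by neighboring cells as a membrane-bound protein that can be shed. On binding, Kit dimerizes and phosphorylates itself, and its phosphotyrosines recruit Src family kinases such as Lyn, the adaptors Grb2 and Shc1, the PI3K regulatory subunit p85α (Pik3r1) and the phosphatase Shp2 (Ptpn11). Gab2 is a scaffold that Grb2 brings in and that carries further docking sites for p85α and Shp2. Cbl, a ubiquitin ligase, and Sh2b3 (Lnk), an adaptor, damp the signal.

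The 8 libraries held 8933236 to 13428214 counts on genes (median 11942635), and 12844 to 14309 genes were detected in each. The summed endothelial and hematopoietic markers went with the sort, though not each gene did. The summed level of 9 endothelial markers was 5770 to 6520 CPM (counts scaled to a common library total) in endothelium and 420 to 2710 CPM in clusters, and none of the 9 was at 0 in any library. That of 8 hematopoietic markers was 967 to 1220 CPM in clusters and 90.8 to 99.7 CPM in endothelium. Among them Itga2b, the gene of CD41, overlapped between the cell types. It had 109 and 90 counts in Sl/Sl endothelium and 109 to 271 in the cluster libraries. Laptm5 was lower in endothelium but still had 563 to 876 counts there, against 1671 to 2497 in clusters. The cluster libraries differed in several of the marker lists. Sl/Sl clusters replicate 1 had the 2710 CPM of endothelial markers, against 420 to 1150 CPM in the other cluster libraries. Cdh5 and Tie1 were higher in wild type clusters replicate 1 (59.1 and 34.4 RPKM) than there (38 and 31.3), and the other endothelial markers were lower. Cluster cells were themselves sorted as VE-Cadherin+, and whether these markers came from other cells was not tested. Wild type clusters replicate 1 had 358 CPM over 7 germ cell markers, against 1.67 to 17.5 CPM in the other 7 libraries. Most of this came from Dppa5a, with 3190 counts there and 0 to 8 elsewhere. Dppa3 came next, with 889 counts there and 0 counts in every other library. The rest of the list was mixed. Dazl had 24 counts there and 0 to 5 elsewhere. Ddx4 had 29 counts there and 187 in wild type clusters replicate 2. Nanos3 had 23 there and 163 in wild type endothelium replicate 1, and Pou5f1 was at 0 in all libraries. Sl/Sl clusters replicate 2 had 4470 CPM over 7 mesenchymal markers, against 32.1 to 1410 CPM elsewhere. The summed level of 7 macrophage markers was 206 to 753 CPM in clusters and 4.55 to 25.7 CPM in endothelium. Most of it in clusters came from Lyz2, with 1675 to 7909 counts, while C1qa had 0 to 300 there. The summed level of 7 erythroid markers was 21.5 to 247 CPM over all libraries. In such bulk samples, fewer cells of a type and less RNA per cell cannot be told apart.

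On mm9, Kit lies on the plus strand of chromosome 5 from 75971012 to 76052746 with 21 exons in the table, and Kitl on the plus strand of chromosome 10 from 99478458 to 99563046 with 10 exons. No exon of any of the 10 members shares a base with an exon of another gene of the table, on either strand. The 200 bases before the outermost annotated start of Kit and Kitl are shown because the results turn on this receptor and ligand. They were read from the mm9 genome at chr5:75970741-75970940 and chr10:99478064-99478263, plus strand, 5′ to 3′. Capitals mark a GC box in Kit and an E-box in Kitl.
Kit: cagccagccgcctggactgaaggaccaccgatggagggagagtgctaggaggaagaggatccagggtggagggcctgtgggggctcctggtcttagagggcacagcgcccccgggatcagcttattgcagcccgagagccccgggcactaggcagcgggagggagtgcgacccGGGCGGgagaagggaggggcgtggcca
Kitl: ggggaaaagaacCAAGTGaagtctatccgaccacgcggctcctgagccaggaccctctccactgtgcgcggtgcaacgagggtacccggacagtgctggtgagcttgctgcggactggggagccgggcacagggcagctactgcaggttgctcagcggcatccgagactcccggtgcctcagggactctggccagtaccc
A set of 5 short motifs was searched on both strands, namely a GATA motif (AGATAA), a RUNX motif (TGTGGT), an E-box (CANNTG), an ETS motif (GGAAGT) and a GC box (GGGCGG). In the Kit window only the GC box was found, starting 27 bases before the start, and in the Kitl window only the E-box CAAGTG, starting 188 bases before it. Among 23807 such windows of the table's genes, 39.9% held the GC box, 54.5% the E-box, 17.4% the ETS motif, 9.73% the RUNX motif and 6.83% the GATA motif. Of the 10 members, 9 had the GC box, 3 the ETS motif (Grb2, Shc1 and Lyn), 2 the E-box (Kitl and Grb2) and 0 the RUNX or the GATA motif. These windows were 69% G and C in Kit and 65% in Kitl, against a median of 56.5% over all windows. A match of these letters is a description of the sequence and not a measured binding site.

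Between the cell types, 2 of the 10 members passed the test over both genotypes (4 libraries against 4), where 16.6% of all genes tested did. Both were lower in endothelium, Kit 3.74-fold and Grb2 2.04-fold. Within the wild type 1 member passed, Kit, against a background of 8.24% of genes, and within Sl/Sl again 1, Kit, against 2.83%. Between the genotypes 0 members passed in clusters and 0 in endothelium, and 0 passed the test of whether the genotype effect differed between the cell types. The background was 0% in each of these 3 comparisons: edgeR's quasi-likelihood test called 0 of 13908 genes, with 587, 580 and 736 genes at an unadjusted p under 0.05, and DESeq2 called 175, 178 and 175 genes. With 2 libraries against 2, p = 0.333 is the lowest that an exact two-sided permutation test on 1 gene can reach. Fold changes below are on the log2 scale with their standard error (SE), from edgeR's quasi-likelihood test over all genes with Benjamini-Hochberg adjustment, and a gene passed at an adjusted p under 0.1. Levels are RPKM, which divides the counts by exon length and by the library's total on genes, given as the mean ± SD (n = 2) or by library. Whether groups overlapped was read from CPM scaled by TMM factors, except for the neighbors of Kitl (counts) and the order of levels within a group (RPKM).

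**Figure D1:**
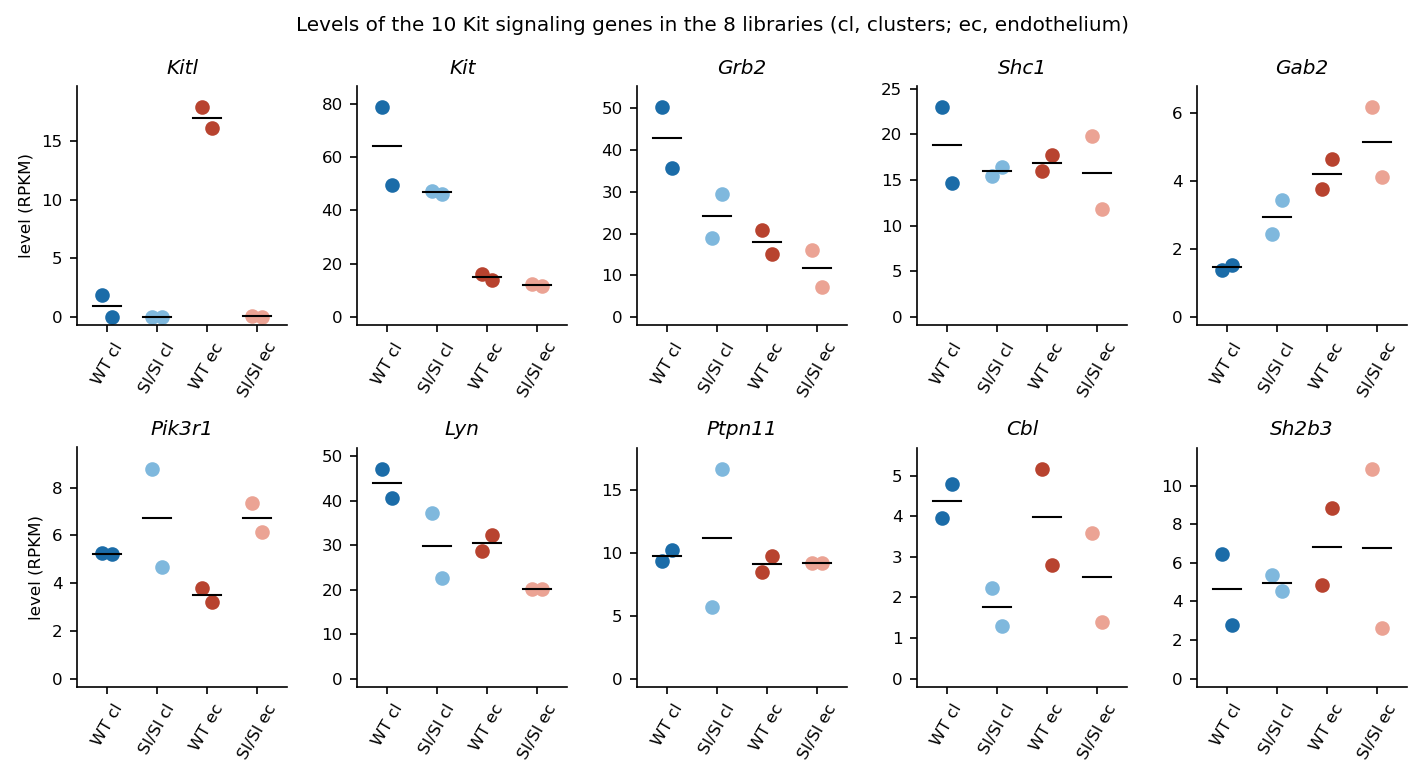
Level in RPKM (vertical axis, linear and from about 0) of each of the 10 genes in the 4 groups, with 1 point per library and a line at the group mean; cl, clusters, and ec, endothelium. Kitl was high only in the 2 wild type endothelium libraries, Kit was highest in clusters, Gab2 was lowest in wild type clusters, and the points of Shc1, Ptpn11 and Sh2b3 overlap between cell types.

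Kitl, the ligand, was a transcript of wild type endothelium. It had 1250 and 923 counts there, or 17.9 and 16.1 RPKM. Sl/Sl endothelium had 6 and 2 counts, and Sl/Sl clusters had 1 and 3. In wild type clusters, replicate 1 had 110 counts (1.88 RPKM) and replicate 2 had 0 counts, where the 3 counts that a count of 0 allows correspond to 0.0438 RPKM. The groups of endothelium did not overlap, and the mean level was 17 ± 1.23 RPKM in the wild type against 0.0668 ± 0.0364 in Sl/Sl. The fitted log2 fold change between them was −7.91 (SE 1.96, 95% interval −12.32 to −3.5), with an unadjusted p of 0.00278 and an adjusted p of 1. It passed under DESeq2 (adjusted p = 0.000122) and without the filter on low counts (adjusted p = 6.17e-08). Between the genotypes in clusters the fitted log2 fold change was −4.89 (SE 1.82, adjusted p = 1), and the libraries overlapped because wild type replicate 2 was at 0.

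Endothelium exceeded clusters in Kitl by 2.84 on the log2 scale over both genotypes (SE 1.22, adjusted p = 0.177), and by 4.34 in the wild type (SE 1.62, adjusted p = 0.181), where the libraries did not overlap. In Sl/Sl the fitted difference was 1.33 (SE 1.89, adjusted p = 0.818) on at most 6 counts per library. The comparison over both genotypes rested on the 110 counts of a single cluster library. Without wild type clusters replicate 1 the difference over both genotypes was 7.23 with an adjusted p of 0.000856, and within the wild type the adjusted p was 0.00184. The fitted genotype effect in clusters then turned to 3.9 (adjusted p = 1) on 0 to 3 counts per library. The test of unequal genotype effects in clusters and endothelium gave 3.01 (SE 2.55, adjusted p = 0.976) with all libraries and an adjusted p of 0.0771 without that one. The same library had 1150 CPM over the endothelial markers, against 420 CPM in wild type clusters replicate 2, and carried the germ cell markers Dppa5a and Dppa3; the part of these in its Kitl counts was not tested.

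Beside Kitl, genes on its downstream side on chromosome 10 were listed at few or no counts in Sl/Sl. In the table, 17 genes have an exon within 1 Mb of Kitl, of which 8 were tested and the other 9 had 0 counts in every library. The 3 tested genes downstream were at or near 0 in all 4 Sl/Sl libraries. Tmtc3, a transmembrane protein of the endoplasmic reticulum whose gene starts 343 kb beyond Kitl (99906536 to 99949981), had 899 and 905 counts in endothelium and 587 and 59 in clusters of the wild type. In Sl/Sl it had 5 and 4 counts in endothelium and 5 and 0 in clusters. Cep290, a protein of the ciliary transition zone 388 kb beyond Kitl (99950923 to 100036289), had 78 and 111 counts in endothelium and 257 and 47 in clusters of the wild type. In Sl/Sl it had 0 and 0 counts in endothelium and 4 and 0 in clusters. For 4930430F08Rik, 472 kb beyond Kitl, the counts were 15 and 239 in wild type endothelium, 277 and 79 in wild type clusters, then 0 and 5 in endothelium and 4 and 1 in clusters of Sl/Sl embryos. For each of these 3 genes every wild type library was above every Sl/Sl library. None passed after adjustment: the unadjusted p of Tmtc3 was 0.00116 in clusters (adjusted p = 0.404) and 0.000781 in endothelium (adjusted p = 1), that of Cep290 0.0247 and 0.0088, and that of 4930430F08Rik 0.025 and 0.0386. The spans of Cep290 and 4930430F08Rik overlap at their ends, and the library preparation does not mark strand.

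Upstream of Kitl the 5 tested genes (Csl, Dusp6, Poc1b, Galnt4 and Atp2b1) had counts in every Sl/Sl library, and their unadjusted p ran from 0.25 to 0.984 over both cell types. The nearest of them, Csl at 256 kb, had 8 to 23 counts over the 8 libraries, and Dusp6 at 748 kb, a phosphatase of Erk, had 878 to 3961. With both cell types pooled, the 4 wild type and the 4 Sl/Sl libraries overlapped in each of these 5 genes. Within a single cell type the counts of some of them separated. Poc1b was lower in Sl/Sl clusters (133 and 205 counts, wild type 359 and 224). Dusp6 was lower in Sl/Sl endothelium (3055 and 2680 counts, wild type 3961 and 3818). Csl was slightly higher in Sl/Sl clusters (19 and 20 counts, wild type 17 and 18). The Sl/Sl libraries of both cell types thus held at most 6 counts of Kitl and of each of the 3 expressed genes downstream of it. No end of the deletion was measured here.

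**Figure D2:**
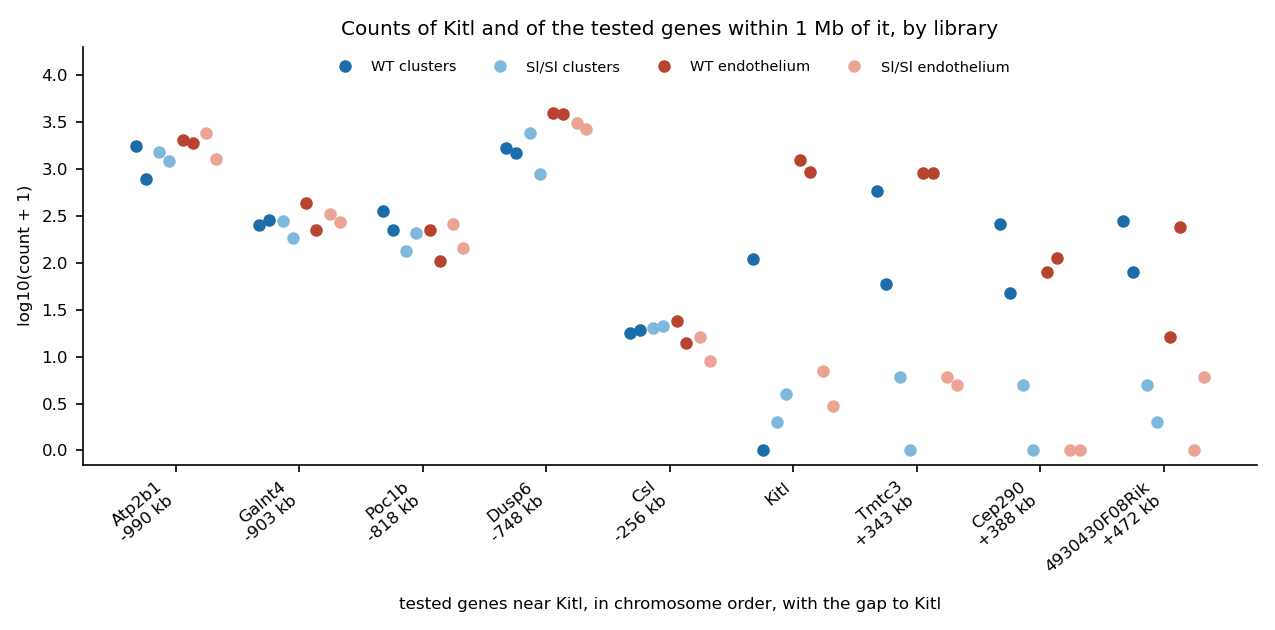
Counts of Kitl and of the 8 tested genes within 1 Mb of it, as log10(count + 1) on the vertical axis, in chromosome order with the gap to Kitl in kb (minus, upstream); each point is 1 library, colored by group. From Kitl to the right the Sl/Sl points lie at 0 to 6 counts. To the left, wild type and Sl/Sl points overlap for each gene when both cell types are pooled.

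Kit, the receptor, was a transcript of the clusters that was also present in endothelium sorted as negative for the protein. Its level was 78.8 and 49.7 RPKM in wild type clusters, 47.3 and 46.2 in Sl/Sl clusters, 16 and 13.8 in wild type endothelium, then 12.4 and 11.6 in Sl/Sl endothelium. Every cluster library was above every endothelium library. The log2 fold change of endothelium against clusters was −1.90 over both genotypes (SE 0.21, adjusted p = 0.000801), −1.98 in the wild type (SE 0.29, adjusted p = 0.00808) and −1.83 in Sl/Sl (SE 0.29, adjusted p = 0.0186).

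Between the genotypes, both Sl/Sl libraries had less Kit than both wild type libraries in each cell type. The log2 fold change was −0.44 in clusters (SE 0.28, 95% interval −1.08 to 0.2, adjusted p = 1) and −0.29 in endothelium (SE 0.28, 95% interval −0.93 to 0.35, adjusted p = 1). Non-overlap of this kind was seen in 32.7% of all genes in clusters and 28.5% in endothelium. In clusters the log2 fold change was −0.11 without wild type clusters replicate 1, the library with high Dppa5a and Dppa3, and −0.71 without replicate 2. The part of cells with these markers in its Kit level was not tested.

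On the scale per length the ligand and the receptor were at about the same level in wild type endothelium, with 1.12 and 1.17 RPKM of Kitl for each RPKM of Kit. In wild type clusters the ratio was 0.0238 and 0. In the Sl/Sl libraries it was 0.000324 to 0.00748.

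The adaptors divided. Grb2, which links Kit to Sos and Ras, had 50.3 and 35.6 RPKM in wild type clusters, 19 and 29.5 in Sl/Sl clusters, 20.8 and 15 in wild type endothelium, then 16 and 7.29 in Sl/Sl endothelium. Wild type clusters were highest, and Sl/Sl clusters overlapped with wild type endothelium. Over both genotypes Grb2 was lower in endothelium, with a log2 fold change of −1.03 (SE 0.34, adjusted p = 0.0899). This call was lost without any single library except Sl/Sl endothelium replicate 1, with adjusted p of 0.101 to 0.255. In the wild type the difference was −1.13 (SE 0.48, adjusted p = 0.234) and in Sl/Sl −0.92 (SE 0.48, adjusted p = 0.418), and neither pair of groups overlapped.

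Gab2 ran the other way. Its level was 1.39 and 1.54 RPKM in wild type clusters, 2.44 and 3.45 in Sl/Sl clusters, 3.76 and 4.63 in wild type endothelium, then 6.17 and 4.1 in Sl/Sl endothelium. All 4 endothelium libraries were above all 4 cluster libraries, as was the case, in either direction, for 19.7% of all genes and for 2 of the members, Kit and Gab2. The log2 fold change was 1.29 (SE 0.48, 95% interval 0.22 to 2.36), which did not pass (adjusted p = 0.123). DESeq2 called it (adjusted p = 0.0294). In the wild type it was 1.64 (SE 0.68, adjusted p = 0.222) and in Sl/Sl 0.94 (SE 0.67, adjusted p = 0.551). Shc1, the third adaptor, had 14.7 to 23 RPKM in clusters and 11.8 to 19.8 in endothelium, with overlap and with a log2 fold change of 0.044 (SE 0.29, 95% interval −0.62 to 0.71, adjusted p = 0.96).

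Among the enzymes, Lyn was the most abundant. It had 47.2 and 40.5 RPKM in wild type clusters, 37.1 and 22.5 in Sl/Sl clusters, 28.6 and 32.3 in wild type endothelium, then 20.1 and 20.2 in Sl/Sl endothelium. In each cell type both Sl/Sl libraries were below both wild type libraries, with log2 fold changes of −0.53 in clusters (SE 0.35) and −0.58 in endothelium (SE 0.35) and an adjusted p of 1 in both. Endothelium against clusters was −0.42 over both genotypes (SE 0.24, adjusted p = 0.317) and −0.40 in the wild type (SE 0.35, adjusted p = 0.573).

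Pik3r1 had 5.24 and 5.2 RPKM in wild type clusters, 8.8 and 4.68 in Sl/Sl clusters, 3.78 and 3.2 in wild type endothelium, then 7.35 and 6.14 in Sl/Sl endothelium. It was the member that was higher in Sl/Sl endothelium without overlap, by 0.97 (SE 0.51, 95% interval −0.17 to 2.11, unadjusted p = 0.0872, adjusted p = 1). Between the cell types its difference was −0.17 (SE 0.36, adjusted p = 0.821), and −0.46 in the wild type (SE 0.50, adjusted p = 0.673), where the groups did not overlap.

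Ptpn11 was at 8.47 to 10.2 RPKM in 6 of the libraries. The other two were the Sl/Sl cluster libraries, with 5.67 in replicate 1 and 16.7 in replicate 2, the library with the high mesenchymal markers, whose part in this value was not tested. Its log2 fold change between cell types was −0.058 (SE 0.36, adjusted p = 0.956).

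The negative regulators were low and uneven between replicates. Cbl had 3.97 and 4.79 RPKM in wild type clusters, 2.23 and 1.3 in Sl/Sl clusters, 5.18 and 2.81 in wild type endothelium, then 3.6 and 1.39 in Sl/Sl endothelium. Sl/Sl clusters were below wild type clusters without overlap, at a log2 fold change of −1.29 (SE 0.86, 95% interval −3.23 to 0.65, adjusted p = 1). Sh2b3 had 6.48 and 2.79 RPKM in wild type clusters, 5.35 and 4.53 in Sl/Sl clusters, 4.87 and 8.83 in wild type endothelium, then 10.9 and 2.62 in Sl/Sl endothelium, where its replicates differed 4.17-fold. Between the cell types the difference was 0.30 for Cbl (SE 0.60, adjusted p = 0.809) and 0.64 for Sh2b3 (SE 0.69, adjusted p = 0.611), and for Sh2b3 no comparison separated the libraries.

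Counted over the members, 5 of 10 differed without overlap between the genotypes in clusters (Kit, Grb2, Lyn and Cbl lower in Sl/Sl, Gab2 higher) against 32.7% of all genes, and 4 of 10 in endothelium (Kit, Kitl and Lyn lower, Pik3r1 higher) against 28.5%. Kitl is the deleted gene, so its place among these 4 was fixed in advance and is only a check of the genotype. For Grb2 in clusters the log2 fold change was −0.81 (SE 0.48) and for Gab2 1.01 (SE 0.67), both with an adjusted p of 1. Endothelial markers summed to 1150 and 420 CPM in wild type clusters and to 2710 and 738 CPM in Sl/Sl clusters. Kit, Grb2, Lyn and Gab2 differed here in the same direction as between endothelium and clusters over both genotypes. Cbl differed in the opposite direction, with −1.29 between the genotypes in clusters and 0.30 between the cell types. Without Sl/Sl clusters replicate 1, the library with 2710 CPM, the log2 fold change between the genotypes was −0.49 for Kit, −0.56 for Grb2, 1.21 for Gab2, −0.98 for Lyn and −1.77 for Cbl. These values rest on Sl/Sl clusters replicate 2 alone, the library with 4470 CPM of mesenchymal markers. Without replicate 2 instead, the change was −1.12 for Grb2, 0.78 for Gab2, −0.19 for Lyn and −0.93 for Cbl. The part of cells with either set of markers was not tested. Between the cell types 6 of 10 did not overlap in the wild type, where 50.6% of genes did not, and 4 of 10 in Sl/Sl, where 46.3% did not. In Sl/Sl these were Kit and Grb2, lower in endothelium, and Kitl and Gab2, higher. In the wild type Pik3r1 and Lyn joined them, lower in endothelium. Kit was part of the sort gate. Kitl is deleted in Sl/Sl, and as raw counts its 6 and 2 in endothelium overlapped with the 1 and 3 in clusters. Kit and Lyn were the members that were lower without overlap in both Sl/Sl cell types. Of the 13908 genes tested, 2261 were lower in Sl/Sl without overlap in clusters and 2077 in endothelium. The share of genes lower in both was not computed. The median log2 fold change of the 10 members, the deleted Kitl included, was −0.33 in clusters and −0.19 in endothelium, beside 0.030 and −0.0014 over all genes tested.

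**Figure D3:**
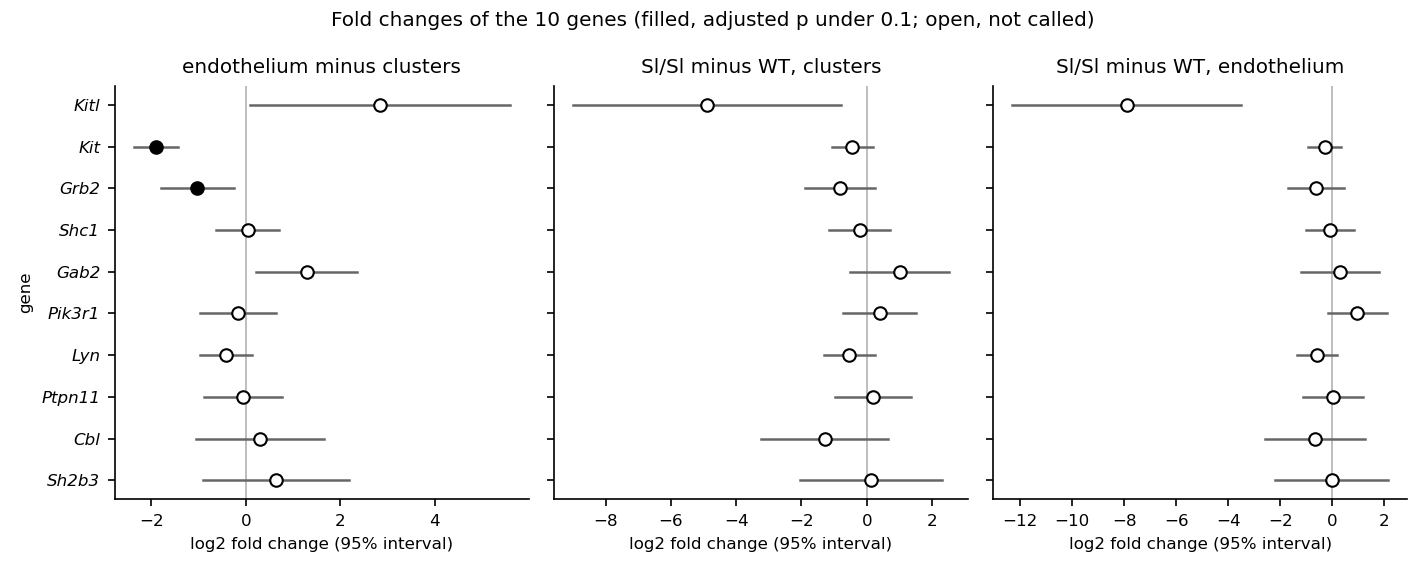
Log2 fold change of each of the 10 genes (points) with its 95% interval (lines) for endothelium minus clusters over both genotypes, and for Sl/Sl minus wild type in clusters and in endothelium; filled points passed at an adjusted p under 0.1. Kit and Grb2 are the filled points, at −1.90 and −1.03, and the interval of Kitl lies to the left of 0 in both genotype panels with open points.

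The order of the levels per length differed between the cell types. In wild type clusters it was Kit, Lyn, Grb2, Shc1, Ptpn11, Pik3r1, Sh2b3, Cbl, Gab2 and Kitl, and the ranges of these neighbors overlapped for Lyn and Grb2, for Pik3r1 and Sh2b3, for Sh2b3 and Cbl, and for Gab2 and Kitl. In wild type endothelium Lyn led at 30.4 ± 2.63 RPKM, without overlap with the next. Grb2, Kitl, Shc1 and Kit followed at 14.9 to 17.9 RPKM, each overlapping with the next, and then Ptpn11, Sh2b3, Gab2, Cbl and Pik3r1. In Sl/Sl clusters the first 7 were those of wild type clusters in the same order, with Gab2 before Cbl. In Sl/Sl endothelium Lyn was again first at 20.2 ± 0.0583 RPKM and Kitl last, and each of the genes between Shc1 and Gab2 overlapped with the next.

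The other genes of the pathway were taken from a list of 68, of which 67 were in the table and 64 were tested. Between the cell types 19 of the 64 passed over both genotypes (29.7%, beside 16.6% of all genes), 5 higher in endothelium and 14 lower. In the wild type 12 passed (2 higher, 10 lower; 18.8%, beside 8.24% of all genes) and in Sl/Sl 7, all lower (10.9%, beside 2.83%). The median log2 fold change of the 64 genes over both genotypes was −0.12, beside −0.067 over all genes.

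The genes lower in endothelium were led by Rac2, a small GTPase of blood cells, at 59.3 to 191 RPKM in the cluster libraries and 0.369 to 1.62 in endothelium (log2 fold change −6.87, SE 0.50, adjusted p = 0.000123). Ptpn6 (Shp1), a phosphatase that dampens Kit, followed at 83.7 to 139 RPKM against 0.802 to 4.79 (−5.87, SE 0.55, adjusted p = 0.000392). Vav1, an exchange factor for Rac, had 6.23 to 12.9 RPKM against 0.0537 to 0.206 (−6.31, SE 0.66, adjusted p = 0.000649). The receptors Flt3 and Csf1r, relatives of Kit, had 178 to 964 and 263 to 529 counts in clusters and at most 4 and 5 in endothelium, with adjusted p of 0.000871 and 0.00215. These 5 genes passed in each genotype as well, though Csf1r did not in Sl/Sl without clusters replicate 2 (adjusted p = 0.104). Csf1r is also 1 of the 7 macrophage markers, whose summed level was higher in clusters, and the part of such cells in these genes was not tested.

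Higher in endothelium were Pik3r3, another PI3K regulatory subunit, at 13 to 20.6 RPKM against 0.382 to 4.64 in clusters (2.69, SE 0.56, adjusted p = 0.0163), and Grb10, an adaptor that binds receptor tyrosine kinases (1.21, SE 0.35, adjusted p = 0.0602). Grb10 overlapped between the cell types through 94.2 RPKM in Sl/Sl clusters replicate 2, the library with the high mesenchymal markers, where the other cluster libraries had 19.7 to 42.5; the part of those markers' cells was not tested. Rasa1 and Nf1, which switch Ras off, rose by 0.71 (SE 0.22, adjusted p = 0.0772) and 1.39 (SE 0.46, adjusted p = 0.09), and the Src family kinase Yes1 by 1.33 (SE 0.45, adjusted p = 0.0979). Of these 5 calls only that of Pik3r3 held without each of the 8 libraries. Grb10 was lost without wild type clusters replicate 2 or replicate 1 of either endothelium (adjusted p of 0.109 to 0.13). Rasa1 passed only without wild type clusters replicate 1 or replicate 2 of either endothelium, Nf1 only without wild type clusters or endothelium replicate 1, and Yes1 only without wild type or Sl/Sl clusters replicate 1, with adjusted p of up to 0.247, 0.308 and 0.228 otherwise. By role, 5 of 11 cytoplasmic tyrosine kinases passed (4 lower, 1 higher), 3 of 6 genes of the PLC gamma, Vav and Rac group (all lower), 2 of 4 related receptors (both lower), 3 of 11 PI3K and Akt genes (2 lower), 3 of 11 Ras and Erk genes (1 lower), 2 of 11 adaptors (1 lower), 1 of 5 negative regulators and 0 of 4 Stat genes.

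Between the genotypes 0 of the 64 passed in either cell type. The smallest p values in clusters were those of Grb10 (1.02, SE 0.50, unadjusted p = 0.0702) and Pik3r3 (1.42, SE 0.76, unadjusted p = 0.093), both with an adjusted p of 1. Grb10 had 42.5 and 19.7 RPKM in wild type clusters and 31.2 and 94.2 in Sl/Sl clusters, and without replicate 2 of Sl/Sl clusters, the library with the high mesenchymal markers, its log2 fold change was 0.070. For Pik3r3, with 2.9 and 0.382 RPKM against 4.64 and 3.87, it was 3.45 without wild type clusters replicate 1 (adjusted p = 0.0939) and 0.60 without replicate 2. In endothelium the smallest were those of Lck, a Src family kinase, and Hras. Lck had 43.9 and 41.7 RPKM in wild type endothelium, then 12.7 and 14.1 in Sl/Sl endothelium (−1.66, SE 0.52, unadjusted p = 0.0103, adjusted p = 1). Hras had 26.2 and 20.3 against 11.6 and 7 (−1.30, SE 0.56, unadjusted p = 0.0438, adjusted p = 1). Neither pair of groups overlapped. The test of unequal genotype effects gave its smallest p for Ptpn6 (−1.95, SE 0.93, adjusted p = 0.902).

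**Figure D4:**
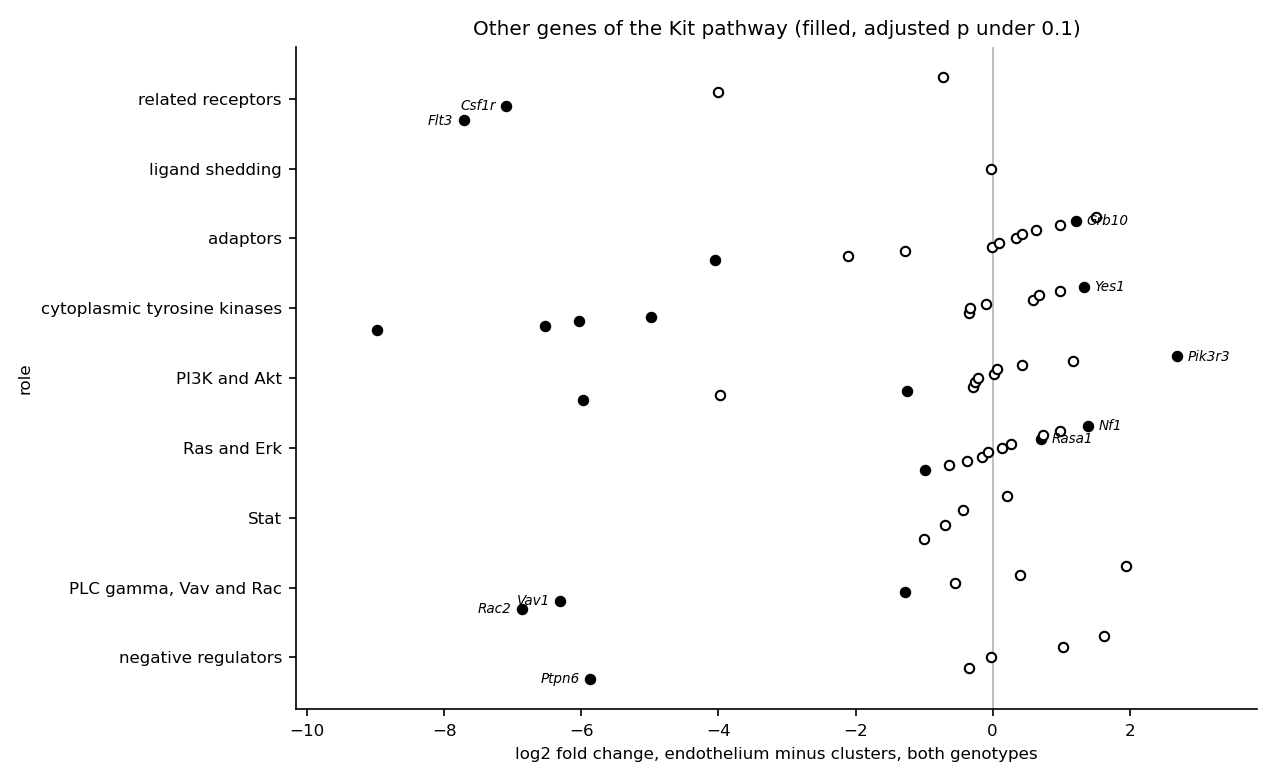
Log2 fold change of endothelium minus clusters over both genotypes (horizontal axis) for the 64 tested genes of the pathway list, grouped by role; filled points passed at an adjusted p under 0.1, and 10 of them are named. Of the 19 filled points 14 lie to the left of 0, and the 5 on the right lie at 0.71 to 2.69.

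The genes whose log2 CPM over the 8 libraries was most like that of Kit, among 5488 genes with a mean log2 CPM of at least 5, were Itga4, an integrin subunit of hematopoietic cells (Pearson's r = 0.989), Mthfd1 (0.981), Atf1 (0.98), Rars2 (0.978) and Paics (0.974). For Kitl they were Zfp961 (0.928), Fam20b (0.917), Atp13a1 (0.917), Ttpal (0.899) and Nudt9 (0.864). These values describe 8 libraries in 2 cell types and 2 genotypes, which the points share.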

How the data were processed

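RNA was measured in 8 SMART-seq2 libraries of 100 sorted cells each, which carry no molecular identifiers. Per the labels and the study's methods, the authors aligned paired-end reads to mm9 with STAR 2.4.2a, merged lanes and counted reads per gene with featureCounts (Subread 1.4.5). The deposited values are unnormalized counts per gene, with the exons and their summed length. The annotation, the strand setting and the treatment of multi-mapped reads are not given in the sources used here. The table names 27 genes as dates, none of them a member.

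Groups came from the labels. Counts were tested with edgeR 4.0.16 (R 4.3.3; quasi-likelihood, TMM factors, filterByExpr, 1 mean per group, 4 residual and 5.24 prior degrees of freedom) on all 8 libraries and all 13908 genes passing the filter, with Benjamini-Hochberg adjustment at 0.1. RPKM were computed from the counts, exon length and plain totals, and log2 CPM with a prior count of 2. Replicates of a group correlated at 0.885 to 0.899 (Spearman, over genes) and none was a copy. P-values weigh a difference of groups against the spread between these libraries, estimated over all 4 groups. The libraries were drawn from pools of embryos, so the spread between single embryos was not measured. Named pathway genes were those called, up to 6 by p in each direction, or the 2 smallest p where none was called; 2 genes so chosen are not reported here. Genes like Kit or Kitl were the 5 with the highest correlation, and neighbors were genes with an exon within 1 Mb of Kitl. The members and lists were chosen with earlier results of these data known. The fit was tested on simulated data. Alternatives were RLE size factors, no filter, DESeq2 1.42.0, the 4 libraries compared, a replicate block, an adjusted p under 0.05, TMM-scaled totals for RPKM and each library left out. Upstream sequence was read from the NCBIM37 (mm9) genome, taking the outermost start in the table or in GENCODE vM1.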

Additional observations from a re-analysis of the deposited data

How the results depend on the processing

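Kit passed between the cell types, over both genotypes and in each genotype, under every alternative run, with adjusted p of 0.000331 to 0.076 over the fits that left out a library. The count of members called moved as follows. Over both genotypes it was 2, and it was 4 with DESeq2, 1 at an adjusted p under 0.05 and 1 to 2 with a library left out. In the wild type it was 1, and it was 2 without the filter, 3 with DESeq2 and 1 to 2 with a library left out. Between the genotypes it was 0, and Kitl made it 1 in clusters without the filter and with DESeq2, and 1 in endothelium without the filter, with DESeq2 and on the 4 libraries compared. For unequal genotype effects it was 0 to 1 with a library left out, the 1 being Kitl without wild type clusters replicate 1. Pathway calls were 12 to 18 over both genotypes with a library left out. In the wild type they were 7 at an adjusted p under 0.05. In Sl/Sl they were 11 without the filter, 14 with DESeq2 and 3 on the 4 libraries. Between the genotypes they were 1 in clusters and 1 in endothelium without the filter and 0 to 1 in clusters with a library left out, and without the filter 1 gene passed for unequal effects. Over all genes the calls between cell types were 1488 (adjusted p under 0.05) and 3614 (DESeq2) over both genotypes, 1990 (no filter), 657 (adjusted p under 0.05), 2613 (DESeq2) and 592 to 1015 (a library left out) in the wild type, and 1266, 222, 1631 and 182 to 402 in Sl/Sl in the same order, with 211 on the 4 libraries. Between the genotypes they were 253 (no filter), 175 (DESeq2), 8 (replicate block) and 6 to 76 (a library left out, the highest without wild type clusters replicate 1) in clusters, and 65, 178 and, on the 4 libraries, 2 in endothelium. For unequal effects they were 179 without the filter, 175 with DESeq2 and 0 to 27 with a library left out. Deviations of same-numbered libraries correlated at −0.111 to 0.157. Such values cannot show whether libraries of 100 cells shared a pool or a sort. The labels give no pairing, and the main fit treated the libraries as independent. The replicate block changed no count of member calls (2 over both genotypes). With a library left out, the fold change of 5 of the 10 members changed sign between cell types over both genotypes (−0.18 to 0.2 for Shc1, −0.37 to 0.12 for Pik3r1, −0.34 to 0.41 for Ptpn11, −0.14 to 0.55 for Cbl and −0.057 to 0.98 for Sh2b3), 3 in the wild type and 6 in Sl/Sl. Between the genotypes 5 did in clusters (−5.9 to 3.9 for Kitl, −0.74 to 0.76 for Ptpn11, −0.18 to 0.8 for Pik3r1, −0.34 to 0.8 for Sh2b3 and −0.48 to 0.093 for Shc1) and 3 in endothelium (−1.36 to 0.65 for Sh2b3, −0.48 to 0.22 for Shc1 and −0.092 to 0.18 for Ptpn11), and 7 did for unequal effects. The cause was not tested in these cases. With 2 libraries a group at 100 cells each, the replicates of Sh2b3 lay up to 4.17-fold apart.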
